A study of Homo sapiens with 15 samples.

Results

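The genes described here are 10 human genes for alpha- and beta-tubulin, 4 alpha (TUBA1A, TUBA1B, TUBA1C, TUBA4A) and 6 beta (TUBB, TUBB2A, TUBB2B, TUBB3, TUBB4B, TUBB6), out of 31352 gene identifiers in the count table. They were taken from a named list of near-copy genes, and TUBA1B was picked from its measured fall in these libraries, so its values below are a description with no test. Poly(A) RNA was sequenced in 15 libraries, 3 in each of 5 groups: cells in which doxycycline induces the intracellular domain of 1 NOTCH receptor (NICD1 to NICD4, numbered as the receptors are), and isogenic cells with an empty vector (EV). The comparison asks what each activated receptor does to RNA levels. Neither the amount nor the time of induction is labelled, nor is any induction of EV cells, the number of clones or the source of the replicates. A p-value here therefore sets a difference only against the spread of libraries within groups, pooled over all 5 groups and moderated across genes. That spread may be technical.

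Alpha- and beta-tubulin form the heterodimer that polymerises into microtubules, the tracks of intracellular transport and the fibres of the mitotic spindle. Human cells carry several genes for each subunit, whose products are nearly identical in the globular body and differ most in the acidic tail at the C-terminus. Cells also adjust tubulin mRNA to the amount of free tubulin: TTC5 recognises the first residues of a nascent tubulin chain on the ribosome and, through SCAPER and the CCR4-NOT deadenylase, triggers decay of that mRNA. TUBA1A and TUBB3 are best known from neurons, TUBB from most dividing cells, TUBB6 from several non-neuronal tissues and muscle, and TUBA1B and TUBA1C from a broad range of tissues.

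A few coding sequences from GENCODE release 29 transcripts show how alike these genes are. The first 24 coding bases are given for 5 genes, with the first 4 codons in capitals. Those codons encode the residues through which TTC5 recognises the nascent chain. TUBA1A and TUBA1C carry the same 12 first bases as TUBA1B, TUBB4B the same as TUBB, and TUBB3 the same as TUBB6.
TUBA1B: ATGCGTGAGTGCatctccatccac
TUBA4A: ATGCGTGAATGCatctcagtccac
TUBB: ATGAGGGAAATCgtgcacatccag
TUBB2A: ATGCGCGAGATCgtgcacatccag
TUBB6: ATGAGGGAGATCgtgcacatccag

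The last 60 coding bases, with the stop codon in capitals, encode the C-terminal tail, the part that marks an isotype. They are shown for the beta genes TUBB and TUBB6, which moved in opposite directions under TMM scaling. TUBB and TUBB6 match at 27 of 60 bases in an ungapped comparison from the stop codon.
TUBB: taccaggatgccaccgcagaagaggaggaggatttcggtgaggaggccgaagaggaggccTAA
TUBB6: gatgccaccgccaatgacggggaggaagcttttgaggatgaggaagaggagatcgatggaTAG

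Over the whole coding sequence, the 6 alpha pairs were 85.0 to 97.3% identical, the 15 beta pairs 81.3 to 98.1%, and an alpha gene and a beta gene at most 58.3%. The closest pairs were TUBB2A with TUBB2B at 98.1%, TUBA1B with TUBA1C at 97.3% and TUBA1A with TUBA1B at 97.2%. The deposited counts come without a read length or a rule for reads that fit several genes. With windows of 50 bases as a stand-in, 87.1% of the windows of the TUBA1B transcript also occur in a transcript of another gene and 56.6% in one of the other tubulin genes described here, against 1.0% for TUBB6 and 30.8% for TUBB. The kit is one that does not mark strand, and the antisense gene TUBA1B-AS1 covers 36.6% of the TUBA1B exon bases, so reads of the 2 cannot be told apart there. TUBA1B-AS1 itself was counted at 38, 57, 44 and 35 reads over the 3 libraries of NICD1, NICD2, NICD3 and NICD4, against 18 reads in EV. Genes with more reads also overlap on the opposite strand. Their reads are given as raw totals, and there were more NICD than EV libraries, so these totals do not compare levels between NICD and EV. AFG3L2 covers 20.3% of the TUBB6 exon bases and had 39380 reads over NICD libraries and 15317 over EV libraries. STK16 covers 15.4% of those of TUBA4A and had 7139 reads over NICD libraries and 2783 over EV libraries. TUBA1A and TUBA1C also overlap each other on opposite strands. TUBA1C covers 14.3% of the TUBA1A exon bases and TUBA1A 10.6% of those of TUBA1C, so reads of the 2 cannot be told apart there. AL662797.1, which is not in the count table, covers 16.0% of the TUBB exon bases on the opposite strand, and 14.6% of TUBB4B windows occur in another gene. Counts of all the tubulin genes described here are uncertain for these reasons, to differing degrees. Whether the authors' counting split reads between copies was not tested.

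**Figure D1:**
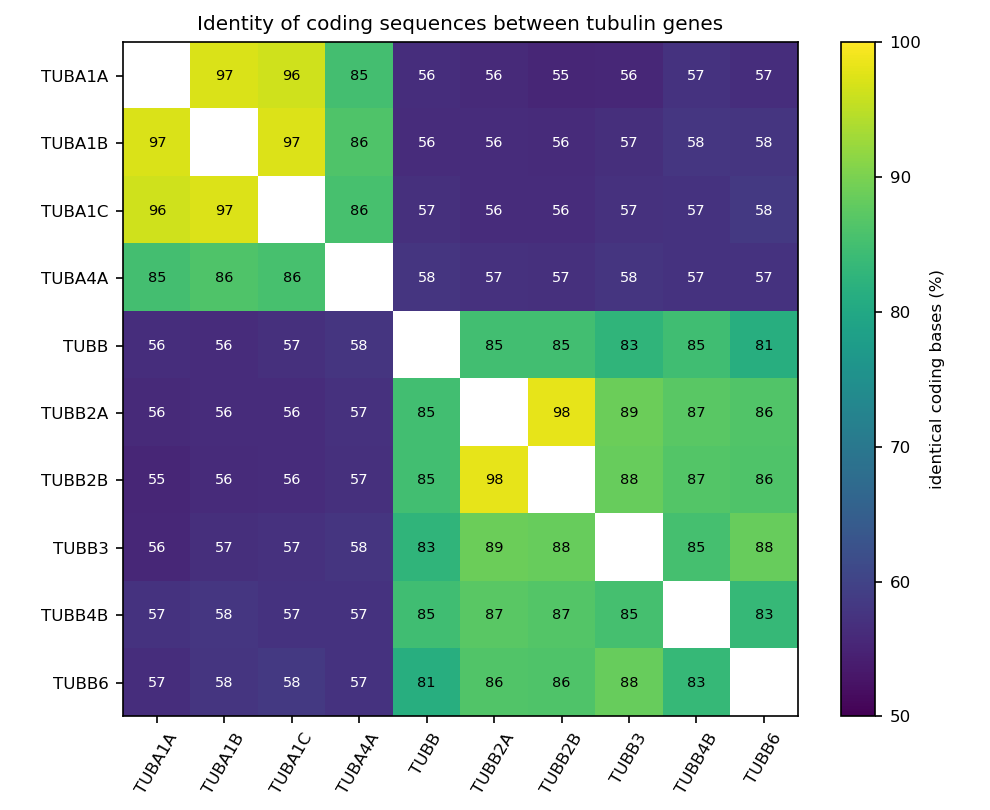
Identity of the coding sequences of the 10 tubulin genes, as the percent of aligned bases that match. The alpha genes and the beta genes each form a block, with TUBB2A and TUBB2B at 98.1% and TUBA1B and TUBA1C at 97.3%, and no alpha-beta pair is above 58.3%.

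Libraries held 11630195 to 27704492 counted reads. Levels are counts-per-million values (CPM), after scaling by the trimmed mean of M values (TMM). Changes are log2 differences ± SE from limma on log2 of the scaled count plus 1 (an added 0.0544 CPM, which understates the change of low genes), with p adjusted by the method of Benjamini and Hochberg over the 15122 genes tested, and genes with an adjusted p below 0.05 count as called. The labels name HCT116, a colorectal carcinoma line, in some fields and U373, a glioma line, in others. Of 12 colorectal epithelial markers, the summed level was 9710 to 23400 CPM in NICD libraries and 2130 to 2710 CPM in EV libraries. The 10 astrocyte and glioma markers summed to 41.4 to 81.1 CPM and 51.8 to 55.6 CPM, with GFAP at group means of 0.981 to 4.38 CPM and 1.63 CPM. Most of that sum came from SLC1A3, NES and, in NICD3, ALDH1L1: SLC1A3 averaged 14.1 to 50.2 CPM in NICD groups and 20.3 CPM in EV, NES 21.97 to 36.2 CPM and 29.7 CPM, and ALDH1L1 29.97 CPM in NICD3, 6 CPM in NICD4, 0.652 CPM in NICD1, 0.367 CPM in NICD2 and 1.51 CPM in EV. The keratins KRT8, KRT18 and KRT19 made up most of the epithelial sum. KRT8 averaged 6137 to 12600 CPM in NICD groups and 1061 CPM in EV. KRT18 averaged 1592 to 4692 CPM and 392 CPM, and KRT19 2209 to 3260 CPM and 703 CPM. Of 10 epithelial markers tested, 8, 8, 9 and 8 were called higher in NICD1 to NICD4, beside 35.6, 29.6, 33 and 37.4% of all genes. Lower calls were VIL1 in NICD1 and NICD3 (-1.08 and -1.80 log2) and KRT20 in NICD2 (-0.71), and EPCAM and VIL1 were not called in NICD4. VIM, an intermediate filament gene, averaged 0.625 to 2.19 CPM in NICD groups and 21.7 CPM in EV. AQP4, SOX2 and OLIG2 of the glioma list had 0 reads in all NICD libraries and only 1, 4 and 1 reads over the EV libraries. FABP7 and GJA1 of that list had at most 1 read in any group. CDX1 of the epithelial list had 1 read in NICD4 and 0 in every other group. For 12 neuronal markers, of which 10 were in the table, the sums were 5.81 to 10.2 CPM and 4.90 to 5.93 CPM, and their part in the results was not tested. The library titled NICD4 replicate 1 is called NICD3 in some of its labels. It was kept in NICD4, and without it the NICD4 differences from EV were -3.47 for TUBA1B, -3.03 for TUBA1C, 1.76 for TUBA4A and -1.26 for TUBB6, 0.03 instead of -0.02 for TUBB4B, and 6 of 8 genes were again called. The NOTCH target HES1 averaged 39.6, 105, 48.7 and 57.1 CPM in NICD1 to NICD4 and 19.4 CPM in EV. The libraries also differed in how counts depended on GC content: the fitted log2 deviation of genes with 60% GC minus that of genes with 40% GC ran from -0.43 to 1.04 in NICD libraries and from -0.94 to -0.72 in EV libraries, with no overlap. This slope and the presence of an NICD cannot be told apart by design, so changes with the GC trend removed are given for each gene or, where the calls kept their side, as a range.

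Among alpha-tubulins, TUBA1B had much lower counts with every NICD, and its near copy TUBA1C moved with it. TUBA1B had 12.3, 6.48 and 20.97 CPM in NICD1 libraries and 30.5, 83.2 and 28.95 CPM in NICD2 libraries. It had 21.3, 34.6 and 35.8 CPM in NICD3 libraries and 4.07, 8.67 and 7.29 CPM in NICD4 libraries, against 68.7, 108.7 and 93.6 CPM in EV libraries. The NICD4 group had the lowest mean, and NICD2 replicate 2 stood above the lowest EV library while every other NICD library was below all 3 of EV. The mean difference from EV was -2.90, -1.08, -1.57 and -3.79 log2 for NICD1 to NICD4, each ± 0.44. Without NICD2 replicate 2 the NICD2 difference was -1.58. As means, 13.2 ± 7.3, 47.6 ± 30.9, 30.6 ± 8.1 and 6.68 ± 2.36 CPM in NICD1 to NICD4 and 90.3 ± 20.2 CPM in EV (SD, n = 3 each) correspond to an EV level 6.82, 1.90, 2.95 and 13.5 times that of each NICD group. With the GC trend removed the differences were -3.12, -1.22, -1.78 and -4.07. TUBA1B was chosen by these sizes. In bulk RNA, fewer cells that express a gene and less RNA per cell cannot be told apart.

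TUBA1C had 30.0, 11.2 and 37.5 CPM in NICD1 libraries and 46.5, 96.6 and 44.98 CPM in NICD2 libraries. In NICD3 libraries it had 35.9, 51.3 and 58.2 CPM and in NICD4 libraries 7.14, 17.02 and 9.72 CPM, against 91.3, 118 and 109 CPM in EV libraries. Again NICD2 replicate 2 was the only NICD library inside the EV range. TUBA1C fell in NICD1 (-2.18 ± 0.41 log2, adjusted p 2.37e-04), NICD3 (-1.15 ± 0.41, adjusted p 0.0216) and NICD4 (-3.31 ± 0.41, adjusted p 3.47e-06). In NICD2 its difference was -0.85 ± 0.41, which did not pass (adjusted p 0.0882), and it did pass without NICD2 replicate 2 (-1.21, adjusted p 0.0242) and without NICD1 replicate 2 (adjusted p 0.0298). It also passed with library totals (adjusted p 0.0476), with voom weights (0.0493) and with only NICD2 and EV in the fit (0.0193). Without the GC trend the 3 calls held, at -1.18 to -3.31 log2. The NICD3 call was lost without EV replicate 2 (adjusted p 0.0584) or NICD3 replicate 1 (adjusted p 0.0902). TUBA1C was listed as a near copy, but the members were chosen with earlier results of these data known. It shares windows with TUBA1B over 37.2% of the TUBA1B transcript, so the 2 genes are not independent observations.

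TUBA1A, whose coding sequence is 97.2% identical to that of TUBA1B, did not follow it. It had 54.2, 63.9 and 51.3 CPM in NICD1 libraries, 136.9, 109 and 129 CPM in NICD2 libraries, 76.5, 69.5 and 65.5 CPM in NICD3 libraries and 93.2, 84.0 and 81.2 CPM in NICD4 libraries, against 97.6, 81.6 and 90.6 CPM in EV libraries. NICD1 and NICD3 libraries lay below all EV libraries, NICD2 libraries above them, and NICD4 libraries overlapped them. TUBA1A fell by 0.67 ± 0.11 log2 in NICD1 (adjusted p 6.18e-05) and by 0.35 ± 0.11 in NICD3 (adjusted p 0.0103) and rose by 0.47 ± 0.11 in NICD2 (adjusted p 0.00183). The NICD4 difference of -0.06 ± 0.11 did not pass (adjusted p 0.613, 95% interval -0.27 to 0.15), although with library totals in place of TMM it was -0.60 and passed. Without the GC trend TUBA1A kept its other calls, and the NICD4 difference was -0.21 (adjusted p 0.0572; 0.0481 when replicate numbers were also blocked). NICD2 against NICD1, in which EV plays no part, differed by 1.15 ± 0.11 log2 (adjusted p 3.88e-06), and all 3 NICD2 libraries exceeded all 3 NICD1 libraries.

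TUBA4A, an alpha gene abundant in platelets and several adult tissues, went the other way. It had 330, 372.7 and 292 CPM in NICD1 libraries, 245, 220.3 and 249 CPM in NICD2 libraries, 291, 248 and 245 CPM in NICD3 libraries and 536, 364 and 428 CPM in NICD4 libraries, against 135, 104 and 111 CPM in EV libraries. All 12 NICD libraries stood above all 3 EV libraries. TUBA4A rose by 1.51 ± 0.14 log2 in NICD1 (adjusted p 3.65e-07), 1.04 ± 0.14 in NICD2 (adjusted p 2.39e-05), 1.17 ± 0.14 in NICD3 (adjusted p 5.35e-06) and 1.91 ± 0.14 in NICD4 (adjusted p 2.81e-08). With the GC trend removed it still rose in all 4 groups, by 0.84 to 1.44 log2.

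**Figure D2:**
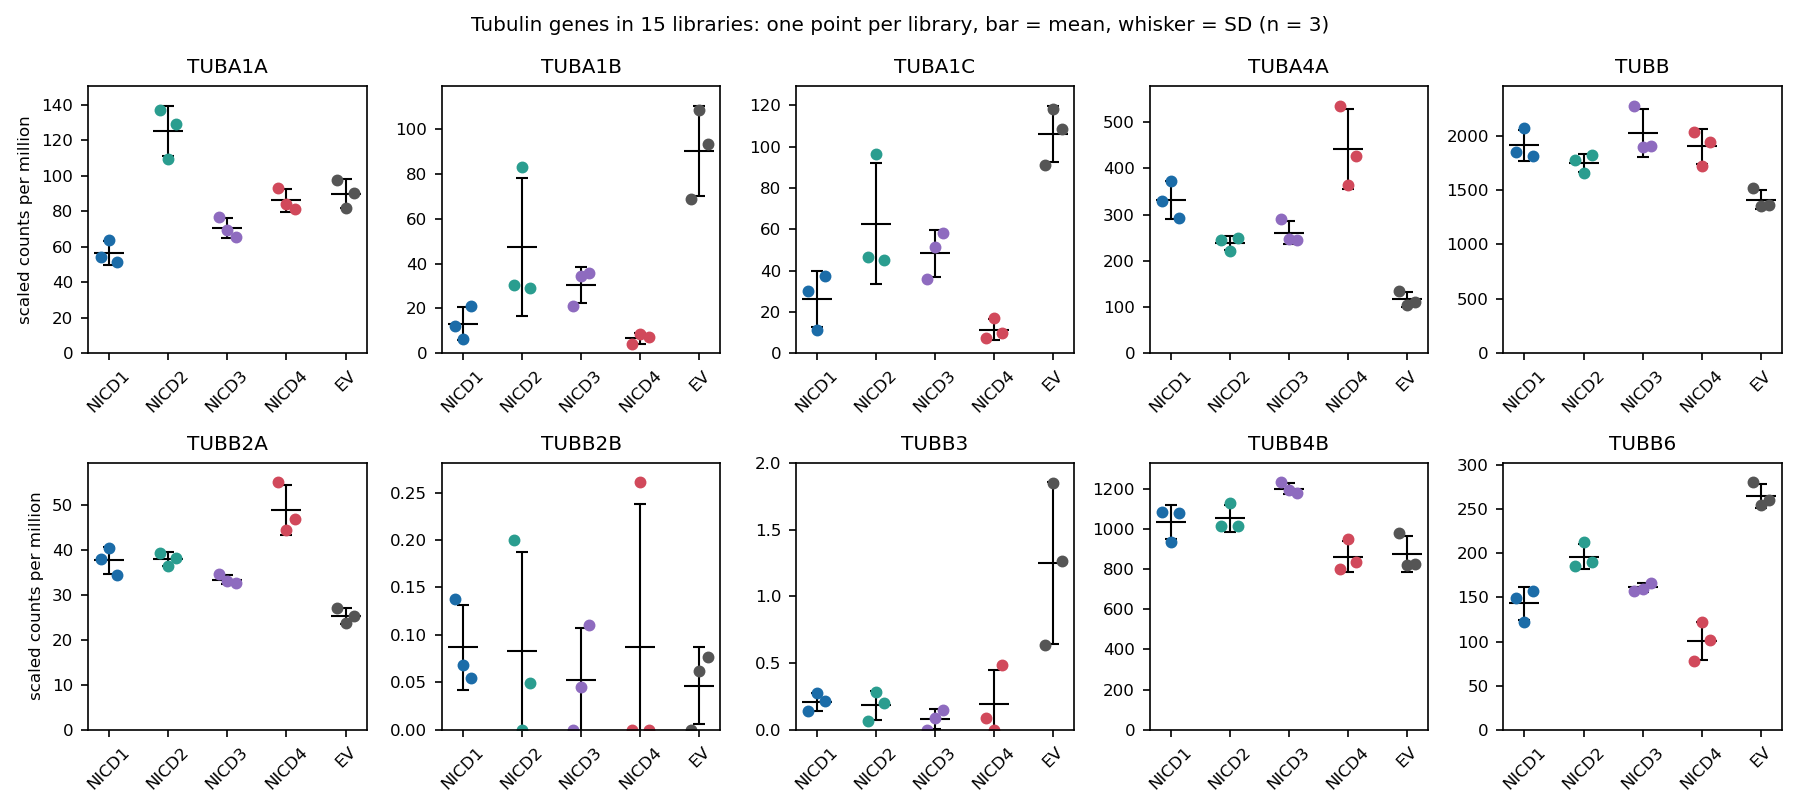
Scaled CPM of the 10 tubulin genes, one panel per gene, with one point per library, the group mean as a bar and the SD as a whisker (n = 3), NICD groups left of EV. TUBA4A lies above EV in all NICD libraries, TUBB6 below it, and TUBA1B and TUBA1C have their lowest means in NICD4 and 1 high NICD2 library.

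TUBB, the beta gene best known from dividing cells, was called higher with every NICD under TMM scaling but with none when library totals were used. TUBB had 1851, 2073 and 1810 CPM in NICD1 libraries, 1777, 1660 and 1820 CPM in NICD2 libraries, 2275, 1893 and 1901 CPM in NICD3 libraries and 2038, 1724 and 1940 CPM in NICD4 libraries, against 1519, 1356 and 1365 CPM in EV libraries. The 12 NICD libraries were all above the EV libraries. The differences were 0.43 ± 0.10, 0.31 ± 0.10, 0.51 ± 0.10 and 0.43 ± 0.10 log2 in NICD1 to NICD4 (adjusted p 0.00140, 0.0172, 4.52e-04 and 0.00139), and with library totals in place of TMM they were -0.02, 0.03, 0.09 and -0.12. Without the GC trend all 4 calls held (0.25 to 0.42 log2). The NICD2 call was also lost without EV replicate 2 or 3 or without NICD2 replicate 1 or 3, at adjusted p 0.0512 to 0.0893.

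TUBB2A is a beta gene also known from neurons and, at low level, from many cells. It had 38.1, 40.4 and 34.6 CPM in NICD1 libraries, 39.4, 36.4 and 38.2 CPM in NICD2 libraries, 34.6, 33.1 and 32.7 CPM in NICD3 libraries and 55.1, 44.5 and 47.0 CPM in NICD4 libraries, against 27.2, 23.7 and 25.3 CPM in EV libraries. Every NICD library exceeded every EV library. The rises were 0.57, 0.58, 0.40 and 0.94 log2, each ± 0.09, in NICD1 to NICD4 (adjusted p 5.11e-05, 8.01e-05, 0.00117 and 3.18e-07), though with library totals the NICD3 difference turned to -0.02 and the NICD1 call was lost (0.11, adjusted p 0.138). With the GC trend removed the NICD1 and NICD3 calls were lost (0.12 and 0.02 log2). Its near-identical copy TUBB2B, a gene of the developing brain, had 4 reads in all in each of the 5 groups, was below the filter and was not tested.

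TUBB4B showed the least regular pattern. It had 1088, 936 and 1081 CPM in NICD1 libraries, 1017, 1131 and 1015 CPM in NICD2 libraries, 1234, 1195 and 1181 CPM in NICD3 libraries and 801, 950.4 and 836 CPM in NICD4 libraries, against 979, 822 and 828 CPM in EV libraries. NICD1 and NICD4 libraries overlapped the EV range, and the NICD2 and NICD3 libraries were above it. TUBB4B passed as higher in NICD1 (0.24 ± 0.10 log2, adjusted p 0.0396), NICD2 (0.27 ± 0.10, adjusted p 0.0306) and NICD3 (0.46 ± 0.10, adjusted p 8.58e-04) and did not pass in NICD4 (-0.02 ± 0.10, adjusted p 0.843). None of these calls held without the GC trend, where the differences were -0.29, -0.01, 0.03 and -0.75 log2 and the NICD4 fall passed (adjusted p 6.65e-05), and with library totals they were -0.22, -0.01, 0.04 and -0.57. The NICD1 call was lost in 7 fits that left out 1 library (EV replicate 2 or 3, NICD1 replicate 1 or 3, NICD2 replicate 3, NICD3 replicate 2 or 3), at adjusted p 0.0501 to 0.196. The NICD2 call was lost in 3 (EV replicate 2 or 3, NICD2 replicate 2), at adjusted p 0.104 to 0.157.

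TUBB6 fell with every NICD. It had 150, 123 and 157 CPM in NICD1 libraries, 185, 213 and 191 CPM in NICD2 libraries, 157, 160 and 167 CPM in NICD3 libraries and 78.2, 122 and 101.4 CPM in NICD4 libraries, against 281, 255 and 261 CPM in EV libraries. No NICD library reached the lowest EV library. TUBB6 fell by 0.90, 0.44, 0.72 and 1.42 log2, each ± 0.13, in NICD1 to NICD4 (adjusted p 2.97e-05, 0.0116, 2.65e-04 and 2.68e-07). With the GC trend removed the falls were larger, at -1.41, -0.70, -1.13 and -2.13.

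TUBB3, the neuronal beta-tubulin, was close to the detection limit. It had 2, 4 and 4 reads in NICD1 libraries, 1, 7 and 4 in NICD2 libraries, 0, 2 and 4 in NICD3 libraries and 1, 0 and 5 in NICD4 libraries, against 14, 60 and 33 reads in EV libraries. It passed the filter only through EV, so it had to differ, and its differences of -2.22 ± 0.72, -2.46 ± 0.72, -3.36 ± 0.72 and -2.89 ± 0.72 log2 are given as a description. An overlapping gene on the same strand, AC092143.1, covers 35.8% of the TUBB3 exon bases and had 13 reads over all NICD libraries and 30 over EV.

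**Figure D3:**
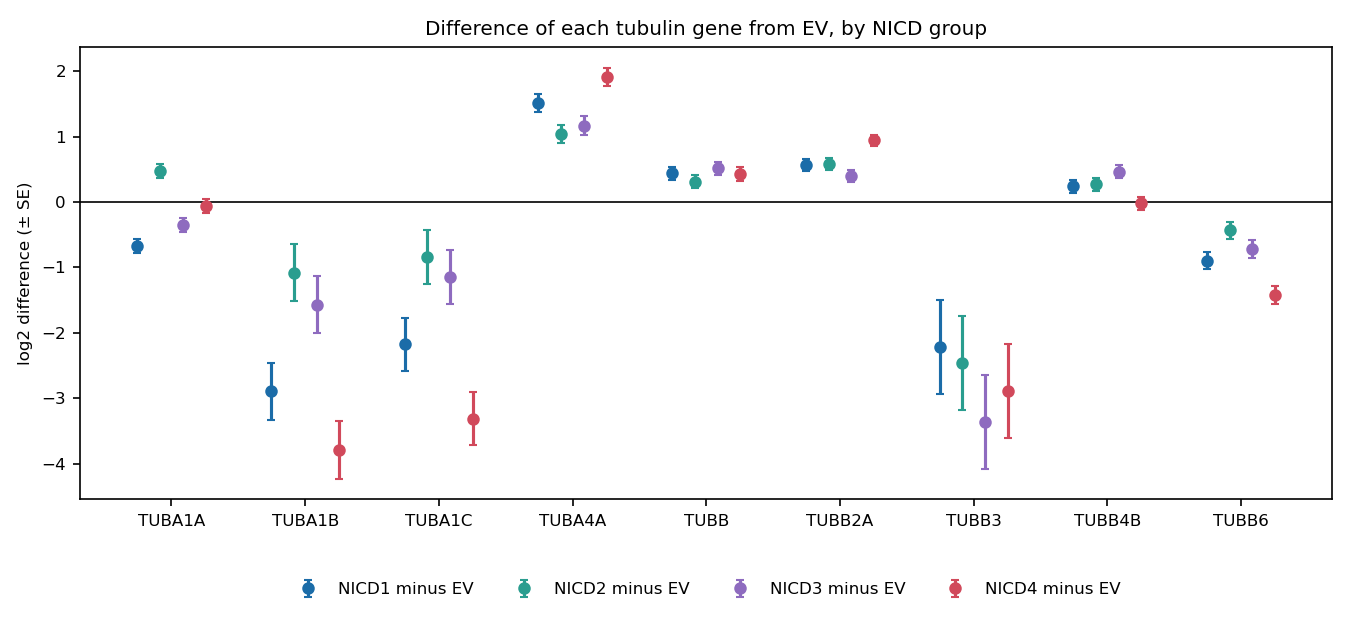
Difference of each tested tubulin gene from EV in log2, with its SE, for the 4 NICD groups from left to right. TUBA4A, TUBB and TUBB2A lie above 0 in all 4 comparisons and TUBA1B, TUBA1C, TUBB3 and TUBB6 below, while TUBA1A and TUBB4B lie on both sides. With library totals in place of TMM, TUBB lies below 0 in NICD1 and NICD4, TUBB2A in NICD3, and TUBB4B in NICD1 and NICD2.

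Counts of called genes are over the 8 tested genes other than TUBA1B, and the 4 comparisons share the EV libraries. TUBB3 is 1 of the lower calls in each of these comparisons, a call that the filter fixed. Without TUBB3, the counts over 7 genes were 4, 5, 4 and 3 higher and 3, 1, 3 and 2 lower in NICD1 to NICD4. In NICD1 against EV, all 8 were called, 4 higher and 4 lower, where 75.4% of all tested genes were called, 35.6% higher and 39.8% lower. In NICD2 against EV, 7 were called, 5 higher and 2 lower, where 59.5% of all genes were called, 29.6% higher and 29.9% lower. In NICD3 against EV, 8 were called, 4 each way, against 69.2% of all genes, 33% higher and 36.2% lower. In NICD4 against EV, 6 were called, 3 each way, against 80.9% of all genes, 37.4% higher and 43.6% lower. With such a background these counts do not set the tubulin genes apart from other genes. Over the 8 genes, library totals in place of TMM gave 1, 3, 1 and 2 higher and 4, 3, 4 and 5 lower in NICD1 to NICD4, where 21.9, 18.8, 19.9 and 24.1% of all genes were higher and 56.1, 44.0, 54.6 and 58.6% lower. Removing the GC trend gave 2, 4, 2 and 3 higher and 4, 2, 4 and 4 lower, where 35.2, 30.7, 33.1 and 36.8% of all genes were higher and 35.4, 28.8, 33.1 and 38.4% lower. Their median differences were -0.22, 0.29, 0.03 and -0.04 log2, beside -0.08, -0.03, -0.07 and -0.12 for all genes. With library totals in place of TMM the median of all genes was -0.53, -0.31, -0.48 and -0.66, and 28.0, 29.9, 26.7 and 29.2% of the called genes were higher, against 47.2, 49.7, 47.8 and 46.2% with TMM.

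The NICD groups also differed among themselves. NICD4 against NICD2 gave 6 calls of 8 (63.5% of all genes), 2 higher and 4 lower: TUBA4A and TUBB2A were higher by 0.88 ± 0.14 and 0.36 ± 0.09 log2, and TUBA1A, TUBA1C, TUBB4B and TUBB6 lower, at -0.53, -2.47, -0.29 and -0.99 log2. NICD4 against NICD3 gave 6 (49% of all genes), 3 each way, with TUBA4A higher by 0.75 ± 0.14 (adjusted p 0.00102) and TUBA1C lower at -2.16 ± 0.41 (adjusted p 0.00108). NICD4 against NICD1 gave 4 (27.2% of all genes), among them TUBB2A, higher by 0.37 ± 0.09 (adjusted p 0.00903), and TUBB6, lower at -0.53 ± 0.13 (adjusted p 0.0116). NICD2 against NICD1 gave 4 (37.2% of all genes), TUBA1A, TUBA1C and TUBB6 higher and TUBA4A lower. NICD3 against NICD2 gave 1 (15% of all genes), TUBA1A, which was lower at -0.82 ± 0.11 (adjusted p 1.37e-04). NICD3 against NICD1 gave 0 with limma (6.72% of all genes) and 0 with voom weights, while 4 of 8 had an unadjusted p under 0.05. In order of the mean, TUBA4A stood highest in NICD4, then NICD1, NICD3 and NICD2, and neither NICD3 and NICD2 nor NICD1 and NICD3 differed past the threshold (adjusted p 0.554 and 0.165). TUBB6 ran the other way, lowest in NICD4, then NICD1, NICD3 and NICD2, with the same neighbours not separated (adjusted p 0.436 for NICD3 against NICD1 and 0.168 for NICD3 against NICD2). The GC slope of the libraries followed the same order of groups. It ran from 0.449 to 1.04 in NICD4, 0.156 to 0.528 in NICD1, -0.0397 to 0.274 in NICD3 and -0.434 to -0.152 in NICD2. Its part in the order of TUBA4A and TUBB6 was not tested. After removal of the GC trend the higher and lower calls were 4 and 1 in NICD2 against NICD1, 2 and 2 in NICD4 against NICD1 and 1 and 4 in NICD4 against NICD2. Leaving out 1 library, the count for NICD2 against NICD1 ran from 1 to 4 and that for NICD4 against NICD1 from 1 to 6. The share of all genes called is not reported here for the fits without the GC trend or without 1 library. These counts therefore cannot be set against that background.

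Per length of merged exon, the shares of the 4 alpha genes in their summed counts differed between the NICD groups and EV. These are shares of counted reads, and how reads that fit several genes were counted is not known. Of 50-base windows, 87.1% of those of TUBA1B and 32.6% of those of TUBA4A occur in another gene's transcript, so dropped reads could alter the shares. TUBA3C, at 24.55 CPM in EV and 0.0135 to 0.121 CPM in NICD groups, is not among the 4. TUBA4A made up 76.5 ± 5.0, 48.6 ± 7.1, 61.8 ± 4.7 and 79.9 ± 3.6% of the 4 alpha genes' CPM per kilobase in NICD1 to NICD4, against 26.6 ± 4.9% in EV (SD, n = 3 each). The share of TUBA1B was 5.16 ± 3.08, 15.3 ± 8.5, 12 ± 3.4 and 2.09 ± 0.98% in NICD1 to NICD4, against 33.6 ± 6.1% in EV. TUBA1C had 4.79, 9.58, 8.90 and 1.67% in NICD1 to NICD4 and 18.6% in EV, and TUBA1A 13.5, 26.5, 17.3 and 16.3% and 21.3%. In EV no alpha gene exceeded 39% in any library, while TUBA4A held 71.4 to 83.1% in every NICD1 and NICD4 library.

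Among the beta genes TUBB and TUBB4B together dominated every group. TUBB held 44.8, 41.7, 42.6 and 49.0% of the beta CPM per kilobase in NICD1 to NICD4 and 39.8% in EV, and TUBB4B 49.7, 51.4, 52.2 and 45.6% and 50.6%. The share of TUBB6 was 3.61, 5.03, 3.68 and 2.79% in NICD1 to NICD4 and 8.06% in EV, with no overlap between the highest NICD library at 5.35% and the lowest EV library at 7.78%. TUBB2A stayed between 1.44 and 2.99% in NICD libraries and between 1.47 and 1.56% in EV libraries.

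**Figure D4:**
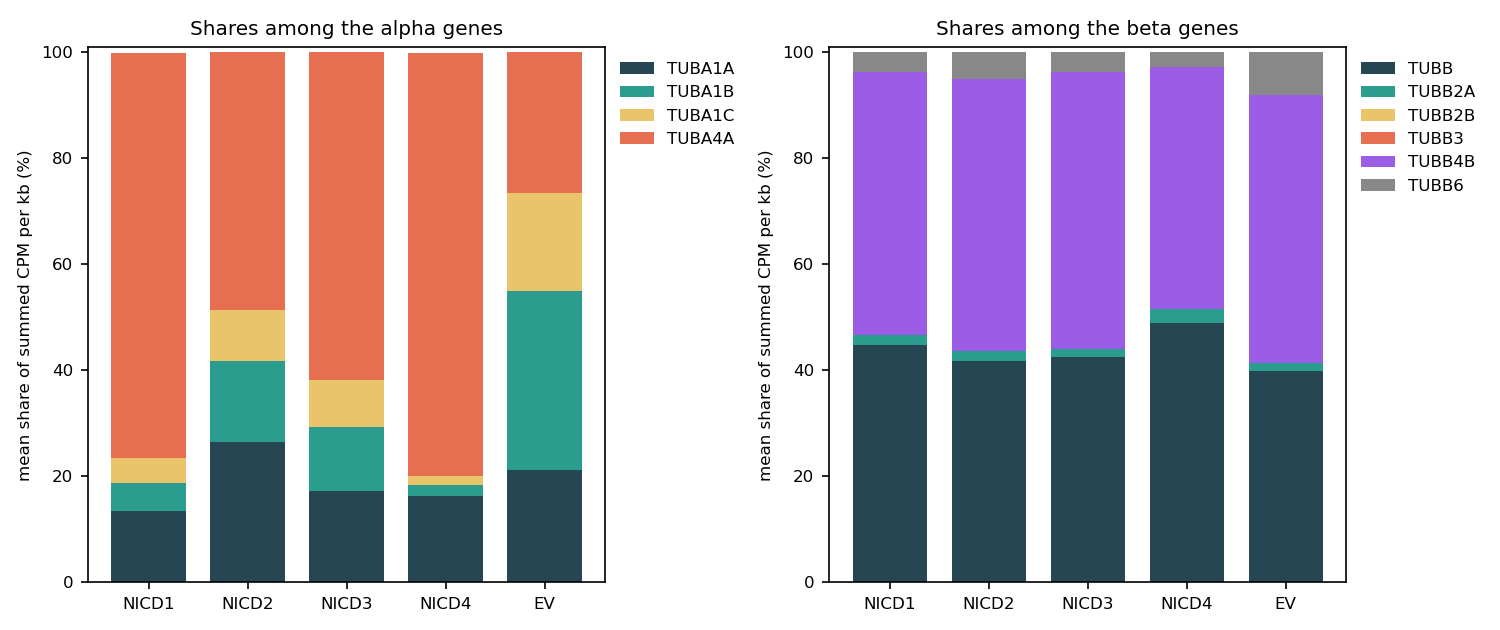
Mean share of each gene in the summed CPM per kilobase of the 4 alpha genes (left) and the 6 beta genes (right), for the 4 NICD groups and EV (n = 3 each). TUBA4A makes up 48.6 to 79.9% of the alpha sum in NICD groups and 26.6% in EV, while TUBB and TUBB4B make up most of the beta sum in all 5 groups.

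Reads shifted between copies within a sum leave it the same, although reads dropped as ambiguous would not. The 4 alpha genes together had 428 ± 26, 474 ± 31, 411 ± 12 and 547 ± 85 CPM in NICD1 to NICD4, against 403 ± 10 CPM in EV (SD, n = 3 each), or 106, 118, 102 and 136% of EV. The 6 beta genes together had 3128 ± 45, 3041 ± 23, 3422 ± 243 and 2913 ± 66 CPM in NICD1 to NICD4, against 2582 ± 195 CPM in EV, or 121, 118, 133 and 113% of EV. Both directions turned with library totals in place of TMM, where the alpha sums were 77.0, 96.7, 76.1 and 92.3% of EV and the beta sums 88.4, 97.0, 99.1 and 77.6%. TUBA1B and TUBA1C together had 39.5 ± 20.5, 110.2 ± 60.3, 79.0 ± 19.4 and 18.0 ± 7.3 CPM in NICD1 to NICD4 and 196.5 ± 33.9 CPM in EV.

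Within each group TUBA1B varied more between libraries than TUBB. Its highest library was 3.24, 2.88, 1.68 and 2.13 times its lowest in NICD1 to NICD4 and 1.58 times in EV, compared with 1.15, 1.10, 1.20 and 1.18 times and 1.12 times for TUBB. These differences between libraries were shared: over the 15 libraries the log2 levels of TUBA1B and TUBA1C had a Pearson r of 0.985, and 0.939 after group means were subtracted. TUBA1B and TUBA4A had an r of -0.933 over the 15 libraries and -0.847 within groups, and the library with the most TUBA1B had the least TUBA4A in 5 of 5 groups. TUBA1B and TUBA1A had an r of 0.281 over the 15 libraries and -0.93 within groups. The GC slope moved with these levels: in 4 of 5 groups the order of the 3 libraries by TUBA1B was the exact reverse of their order by GC slope. NICD2 replicate 2, with the most TUBA1B of the NICD libraries, had the lowest slope of them at -0.43, and NICD4 replicate 1, with the least TUBA1B, had the highest at 1.04. The exon GC content of TUBA1B is 54.4% and that of TUBB 52.5%. TUBB moved less between libraries, but within groups it had an r of -0.823 with TUBA1B and 0.907 with TUBA4A. These correlations describe libraries that share group, depth and base composition, and the part of the GC slope in them was not tested.

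**Figure D5:**
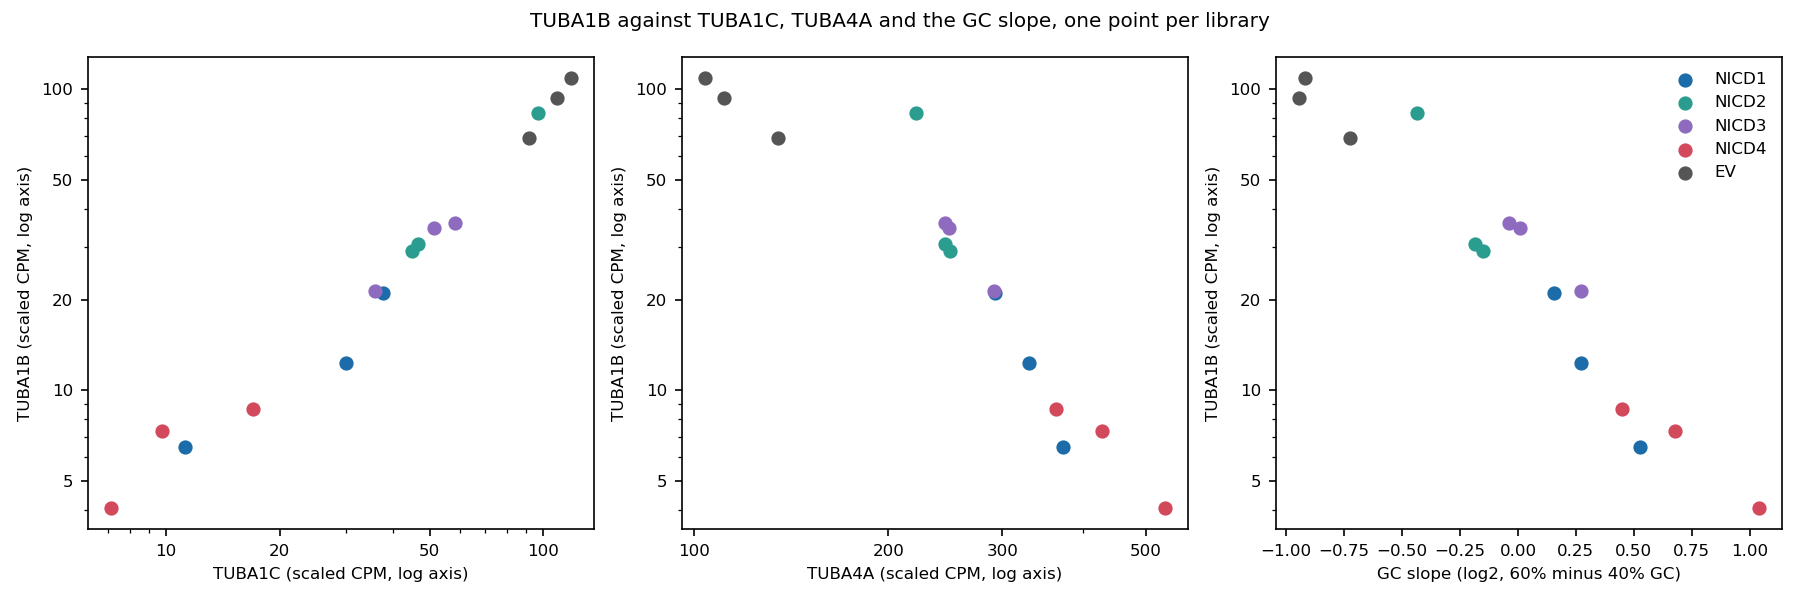
TUBA1B in scaled CPM (log axis) against TUBA1C (left), TUBA4A (middle) and the GC slope (right, log2 deviation at 60% minus 40% GC), one point per library, coloured by group. TUBA1B runs with TUBA1C (r 0.985 over 15 libraries) and against TUBA4A (r -0.933), and the libraries with the highest slopes, up to 1.04, have the least TUBA1B.

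Of 4781 tested genes whose mean log2 CPM reached 5, the 5 most like TUBA1B over the 15 libraries were MPHOSPH6 (r 0.994), the arginine methyltransferase PRMT5 (0.991), AKIRIN1 (0.987), the mitochondrial translation factor PTCD3 (0.986) and TUBA1C (0.985). Within groups these had r of 0.986, 0.963, 0.956, 0.938 and 0.939. The 5 most like TUBA1A were KLHL18 (0.921), ABLIM1 (0.915), IFRD1 (0.904), RPF1 (0.887) and TSC22D1 (0.875), and within groups their r ran from -0.443 to 0.589, so that likeness lay between groups.

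Promoters were compared because TUBA1B and TUBA1C moved together and the NICD acts through the DNA-binding protein RBPJ. RefSeq gives 15 promoter windows for the 10 genes (GRCh38.p14, 250 bases before to 50 after the start), and sequence was searched on both strands. The core GTGGGAA of the RBPJ site occurred in 0 of 15 of these windows and in 6.2% of all 35116 windows, and CCAAT, the site of the factor NF-Y, in 9 of 15 (7 of 10 genes) and in 34.6% of all. A pair of TUBA1C windows overlap and share 1 CCAAT. A match here is only a run of letters, and its absence says nothing about binding. The TUBA1B window (chr12:49131346-49131645, minus strand) has no CCAAT and 77.0% GC, and the most downstream of 3 TUBA1C windows (chr12:49264832-49265131, plus strand) has 1 CCAAT, in capitals, and 67.7% GC.
TUBA1B promoter: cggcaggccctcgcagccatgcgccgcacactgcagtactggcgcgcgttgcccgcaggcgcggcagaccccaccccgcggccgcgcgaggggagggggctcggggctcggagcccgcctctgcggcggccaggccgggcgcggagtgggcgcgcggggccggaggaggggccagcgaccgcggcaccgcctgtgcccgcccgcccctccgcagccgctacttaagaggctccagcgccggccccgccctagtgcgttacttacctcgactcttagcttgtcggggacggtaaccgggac
TUBA1C promoter: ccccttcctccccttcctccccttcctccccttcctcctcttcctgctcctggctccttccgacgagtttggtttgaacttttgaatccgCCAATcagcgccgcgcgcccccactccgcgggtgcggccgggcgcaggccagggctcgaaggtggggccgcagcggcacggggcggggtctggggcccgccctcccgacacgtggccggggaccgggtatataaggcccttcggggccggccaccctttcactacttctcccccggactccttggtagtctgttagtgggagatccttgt

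Other genes of the pathway were counted in lists, and genes are named from among those with the largest mean change and a few set by role. The all-gene shares given above for each comparison and scaling are the background of every list count. Of 7 other tubulins tested, 3, 1, 2 and 2 were called higher in NICD1 to NICD4 and 2, 2, 1 and 4 lower, or 1, 0, 1 and 1 higher and 4, 2, 3 and 5 lower with library totals. TUBA3C, an alpha gene best known from testis, had 2, 1, 8 and 1 reads over the 3 libraries of NICD1 to NICD4, against 644, 706 and 593 reads in the EV libraries. TUBA3C passed the filter only through EV, so it is a lower call in each count by construction, and without it 6 tubulins gave 3, 1, 2 and 2 higher and 1, 1, 0 and 3 lower. TUBB4A, a beta gene of brain, had 99.1 ± 13.1, 81.4 ± 17.03, 115 ± 16 and 189.9 ± 25.8 CPM in NICD1 to NICD4 and 59.5 ± 4.1 CPM in EV and was called higher in all 4 groups by limma, but with the GC trend removed only in NICD3 and NICD4 (0.33 and 0.61 log2). Gamma-tubulin TUBG1, which nucleates microtubules, was called higher in NICD1 and NICD3 (0.30 and 0.56 log2), and with the GC trend removed neither passed (-0.13 and 0.20), while a NICD4 fall of 0.51 did.

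Tubulin folding needs the CCT chaperonin, prefoldin and the tubulin cofactors. Of 21 such genes, 7, 8, 8 and 6 were called higher in NICD1 to NICD4 and 9, 1, 2 and 11 lower, beside 35.6, 29.6, 33 and 37.4% of all genes higher and 39.8, 29.9, 36.2 and 43.6% lower. ARL2, a small GTPase that works with the cofactors, had 215 ± 59, 117 ± 27, 187 ± 43 and 313 ± 91 CPM in NICD1 to NICD4 and 45.4 ± 9.9 CPM in EV (n = 3 each), rises of 2.23, 1.36, 2.04 and 2.76 log2 that stayed at 1.02 to 1.85 without the GC trend. The chaperonin subunit TCP1 was lower at -0.95, -0.55 and -1.59 in NICD1, NICD3 and NICD4, of which the NICD3 call was lost without the GC trend (-0.20). After removal of the GC trend the folding list had 10, 13, 14 and 7 genes higher and 2, 2, 2 and 8 lower, beside 35.2, 30.7, 33.1 and 36.8% of all genes higher and 35.4, 28.8, 33.1 and 38.4% lower. Library totals in place of TMM gave 3, 3, 5 and 2 higher and 14, 5, 9 and 15 lower.

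For the mRNA autoregulation machinery, 1, 1, 1 and 2 of 9 genes were called higher and 6, 4, 5 and 6 lower, beside 39.8, 29.9, 36.2 and 43.6% of all genes lower. SCAPER was lower in all 4 groups (-0.90, -0.86, -0.84 and -0.76 log2), and without the GC trend only in NICD2 (-0.59). TTC5 had 10.5 ± 3.0, 13.7 ± 3.9, 14.6 ± 0.3 and 7.23 ± 1.73 CPM in NICD1 to NICD4, against 16.6 ± 1.3 CPM in EV. It fell in NICD1 and NICD4 (-0.70 and -1.22 log2, adjusted p 0.00930 and 1.16e-04) and the NICD2 and NICD3 differences of -0.32 and -0.19 did not pass. Without the GC trend only the NICD4 fall of TTC5 passed, at -0.49 (adjusted p 0.0134), and the list had 3, 1, 2 and 4 genes higher and 2, 2, 2 and 4 lower, beside 35.4, 28.8, 33.1 and 38.4% of all genes lower. With library totals none was higher and 9, 5, 7 and 9 were lower.

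Among 17 tested genes for the modification of tubulin, not all of them enzymes or acting on its tail, 4, 4, 4 and 3 were called higher and 7, 5, 6 and 5 lower. VASH2, with the largest mean change of them, passed the filter only through EV and is a lower call in each count by construction. AGTPBP1, which removes glutamates from tubulin tails, was lower in all 4 groups (-1.43, -0.49, -1.02 and -1.49 log2), although its NICD2 call was lost without the GC trend (-0.16). The glutamylase TTLL7 was lower in NICD1, NICD3 and NICD4 (-1.53, -1.10 and -1.605 log2), and its NICD3 call was lost without the trend (-0.48). TTLL12 was higher in all 4 groups (1.02, 0.60, 0.57 and 1.14 log2) but not in NICD3 without the GC trend (0.07). For the 17 genes, scaling by library totals gave 1, 2, 0 and 3 higher and 12, 8, 11 and 10 lower. The tyrosine ligase TTL, which restores the last residue of alpha-tubulin, was lower in NICD1, NICD2 and NICD4 (-0.24, -0.25 and -0.55), none of which passed without the GC trend, where a NICD3 rise of 0.16 did. Of 10 genes of the gamma-tubulin ring complex, 5, 3, 4 and 5 were higher and 2, 1, 1 and 4 lower, or 3, 2, 3 and 3 higher and 5, 2, 5 and 5 lower with library totals. Its small subunits MZT2A and MZT2B rose in all 4 groups, by 0.98 to 1.86 and by 1.06 to 2.49 log2, or by 0.65 to 0.99 and by 0.59 to 1.31 without the GC trend, and they are near copies of each other.

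Of 28 microtubule dynamics and binding genes, 8, 6, 8 and 11 were higher and 15, 13, 14 and 15 lower, or 3, 4, 5 and 2 higher and 19, 18, 19 and 18 lower with library totals. The mitotic kinesin KIF18A was lower in all 4 groups (-1.59, -1.37, -1.26 and -1.82 log2), also without the GC trend (-0.64 to -0.99). The polymerase CKAP5 fell to 51.9 ± 5.7, 109 ± 13, 58.2 ± 4.1 and 47.2 ± 6.6 CPM in NICD1 to NICD4, against 151 ± 20 CPM in EV, and it stayed lower in all 4 without the GC trend, at -1.09, -0.23, -1.02 and -1.08 log2. CAMSAP3 of the same list was called higher in all 4 groups (1.24, 0.91, 0.90 and 1.895 log2), which is given only with the GC trend in place. The tubulin-sequestering STMN1 was lower in NICD1, NICD2 and NICD4 (-0.56, -0.42 and -0.85), of which only the NICD4 fall passed without the trend (-0.31). Of 20 mitotic genes, 4, 4, 7 and 5 were higher and 12, 7, 10 and 14 lower, while with the GC trend removed 8, 7, 9 and 6 were higher and 8, 4, 5 and 10 lower, and with library totals 4, 3, 4 and 4 were higher and 16, 13, 14 and 16 lower. The kinetochore genes CENPF and CENPE fell in all 4 groups, although the NICD2 call of CENPE was lost without the GC trend (-0.33). CDC20 of the mitotic list was called higher in all 4 groups (1.095, 0.66, 1.04 and 1.37 log2), which is given only with the GC trend in place. The proliferation marker MKI67 averaged 541, 405, 448 and 562 CPM in NICD1 to NICD4 and 241 CPM in EV.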

How the data were processed

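Each deposited log2 value is a gene's raw read number with 1 added, not scaled between libraries by the authors, as judged from the values: undoing the logarithm gave whole numbers within 0.001 for 100% of values. Alignment with TopHat2 2.0.6, counting with HTSeq and build GRCh37 are named in the submitters' processing notes, and settings, annotation release and strand handling are not given in the sources used here. Symbols, exon lengths, GC content and transcripts came from GENCODE 29, and promoters from RefSeq (GRCh38.p14).

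The filter kept 15122 of 31352 identifiers: those above 0.548 CPM, which is 10 reads at the median depth, in 3 or more libraries, with a total of 15 reads or more, of which 14737 had a GC value. TUBB2B failed this filter. The ends of the alpha coding sequences are not reported here. Counts were scaled by TMM (factors 0.793 to 1.32), and 1 mean per group was fitted to log2 of the scaled count plus 1 over all 15 libraries in limma 3.58.1 (R 4.3.3) with a trended, robust prior (statmod 1.5.0). The test is two-sided. Whole reads were recovered, but the test planned for log2 values was kept and no negative-binomial test was run. The fit was tested on simulated data. The GC trend was a spline with 5 degrees of freedom, removed per library.

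The members and lists were chosen with earlier results of these data known. Named genes are the 10 members, up to 4 called genes a list by mean absolute change, a fixed set (TTC5, STMN1, TTL, TUBG1, CDH1, KRT8, VIM, GFAP, HES1), and the 5 genes most like TUBA1B or TUBA1A. MKI67, SLC1A3, NES, ALDH1L1, KRT19, KRT20, VIL1, EPCAM and the overlapping genes were named after their values were seen. Counts without genes that passed the filter only through EV were added then too.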

Additional observations from a re-analysis of the deposited data

How the results depend on the processing

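The calls of TUBA4A and TUBB6 against EV kept their direction and side of the threshold under every alternative run. With library totals in place of TMM, 5 members were called in NICD1 and in NICD3 against EV (1 higher and 4 lower in each). TUBB3, whose call the filter fixed, is among the lower ones. Of all genes, 21.9 and 19.9% were higher and 56.1 and 54.6% lower in these comparisons with that scaling. Between NICD groups, 1 member was called in NICD3 against NICD1 and 2 in NICD3 against NICD2. The summed alpha genes were then 77.0, 96.7, 76.1 and 92.3% of EV in NICD1 to NICD4, and the summed beta genes 88.4, 97.0, 99.1 and 77.6%. Log2 differences that turned with library totals were TUBB in NICD1 (-0.0228) and NICD4 (-0.118), TUBB2A in NICD3 (-0.0182), and TUBB4B in NICD1 (-0.217) and NICD2 (-0.0137). With the GC trend removed, with or without the replicate block, TUBB4B turned in NICD1 (-0.288) and NICD2 (-0.00711), 1 member was called in NICD3 against NICD1 and 2 in NICD3 against NICD2. With median-of-ratios size factors the beta sums were 123% in NICD1 and 116% in NICD4, and TUBB4B in NICD4 was 0.0227. With only the 2 groups compared, 1 member was called in NICD4 against NICD1 and 2 in NICD3 against NICD2. The causes were not tested. For the counts between NICD groups in these alternative fits, the share of all genes called is not reported here, so they cannot be set against that background.

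Leaving out 1 library at a time, members called against EV ran from 6 to 8 for NICD1 and NICD3, 4 to 8 for NICD2 and 5 to 6 for NICD4. These counts include TUBB3, and the share of all genes called in each such fit is not reported here. Between NICD groups they ran from 1 to 4 in NICD2 and 1 to 6 in NICD4 against NICD1, from 5 to 6 in NICD4 against NICD2 and against NICD3, and stayed at 0 in NICD3 against NICD1 and 1 in NICD3 against NICD2. Alpha sums ran from 103 to 109, 113 to 120, 99 to 103 and 124 to 145% of EV in NICD1 to NICD4, and beta sums from 116 to 124, 113 to 121, 127 to 136 and 109 to 117%. TUBB4B in NICD4 turned in 3 such fits, to 0.0467, 0.0263 and 0.000398, within a range from -0.0907 to 0.0467.

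The replicate numbers do not pair the libraries: deviations of the 30 same-numbered pairs correlated from -0.922 to 0.77, 18 of them over 0.1, and 5 of 15 libraries were closest to their own number. With the replicate block 8, 7, 8 and 6 members were called in NICD1 to NICD4 against EV, as without it. The share of all genes called with the block is not reported here. At a depth of 11630195 reads or more, TUBB2B and TUBB3 were too low for more than a description.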
